A study of Mus musculus with 10 samples.

Results

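Vitamin A is taken into cells and used through a short chain of enzymes. Retinol enters with the help of the membrane receptor STRA6, is oxidised reversibly to retinal by alcohol dehydrogenases such as ADH1 and ADH7 and by the membrane-bound retinol dehydrogenase RDH10, and retinal is then oxidised irreversibly to retinoic acid by the ALDH1A enzymes. CRABP2 carries retinoic acid to its nuclear receptors. ALDH3A1 belongs to the same enzyme superfamily but clears aromatic and lipid-derived aldehydes, and is known as an aryl hydrocarbon receptor (AHR) target in other cells. The 9 genes described here, Aldh1a1, Aldh1a2, Aldh1a3, Aldh3a1, Adh1, Adh7, Rdh10, Crabp2 and Stra6, were chosen by symbol from the 25229 rows of a table of gene counts, and all 9 were found. They were followed in adipose tissue stem and precursor cells (ASPCs) treated with FICZ, a tryptophan photoproduct that binds AHR, or with its vehicle, DMSO.

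The cells were CD45-CD31-Pdgfra+ cells sorted from the stromovascular fraction of perigonadal white adipose tissue (gWAT) of WT mice, plated, grown to confluence without passaging and lysed 6 hr after addition of 100 nM FICZ or DMSO. The labels used here give neither the age of the mice nor whether cells of several mice were pooled. Total RNA was sequenced from 5 DMSO and 5 FICZ libraries, numbered 1 to 5 in each group, with 38328611 to 50210111 counts per library. At this depth 3 counts, taken as the floor of detection, correspond to 0.0603 to 0.0787 CPM (counts per library size, scaled by TMM), a limit set by counting error alone. All 12 ASPC markers were above this floor, with a summed level of 6404 to 8924 CPM in DMSO and 5958 to 8279 CPM in FICZ. Mature adipocyte markers were low, with a summed level of 14.3 to 37.8 CPM in DMSO and 10.3 to 34.7 CPM in FICZ. Lep was the single one of these 8 that never exceeded 3 counts. All 20 hepatocyte markers were also counted in every library. Their summed level was 1534 to 10234 CPM in DMSO and 1496 to 2279 CPM in FICZ, and DMSO replicate 5 was highest. The AHR targets Cyp1a1, Ahrr and Tiparp passed the threshold in these libraries, with log2 fold changes of 3.25, 1.66 and 0.91, and Cyp1b1 had one of 0.62 that did not (adjusted p = 0.147 in edgeR's test).

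Levels can be compared between genes only per length, and CPM per kilobase of exon set the 9 genes apart in abundance. In DMSO the order was Adh1 (51.5 ± 32.1 CPM per kb, mean ± SD, n = 5 libraries), Aldh1a1 (33.4 ± 3.95), Aldh1a3 (12.8 ± 4.96), Adh7 (12.4 ± 6.24), Rdh10 (4.29 ± 0.448), Aldh1a2 (3.07 ± 1.05), Aldh3a1 (0.163 ± 0.110), Crabp2 (0.101 ± 0.0604) and Stra6 (0.100 ± 0.0343). Adh1 and Aldh1a1 lay within the spread of Adh1, Aldh1a3 and Adh7 could not be told apart, and neither could the last 3. Among the transcripts of the ALDH1A members, that of Aldh1a1 was therefore the most abundant and that of Aldh1a2 the least. Protein was not measured. With FICZ the order was the same except that Adh7 (16.3 ± 7.78 CPM per kb) stood above Aldh1a3 (11.1 ± 2.97), again within the spread. Within DMSO, Adh1 was above Aldh1a1 in replicates 1, 4 and 5 (46.1, 56.6 and 104 against 31.9, 34.3 and 39.9 CPM per kb). In DMSO replicates 2 and 3 Adh1 was below Aldh1a1 (24.9 and 26.3 against 30.7 and 30.3). DMSO replicates 1, 4 and 5 also had most of the hepatocyte marker Alb (1921, 1740 and 4782 CPM). The first place of Adh1 in DMSO thus rested on these libraries. The uptake receptor Stra6 and the retinoic acid carrier Crabp2 were close to the floor, Crabp2 with 2 to 10 counts per library and Stra6 with 13 to 35.

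**Figure D1:**
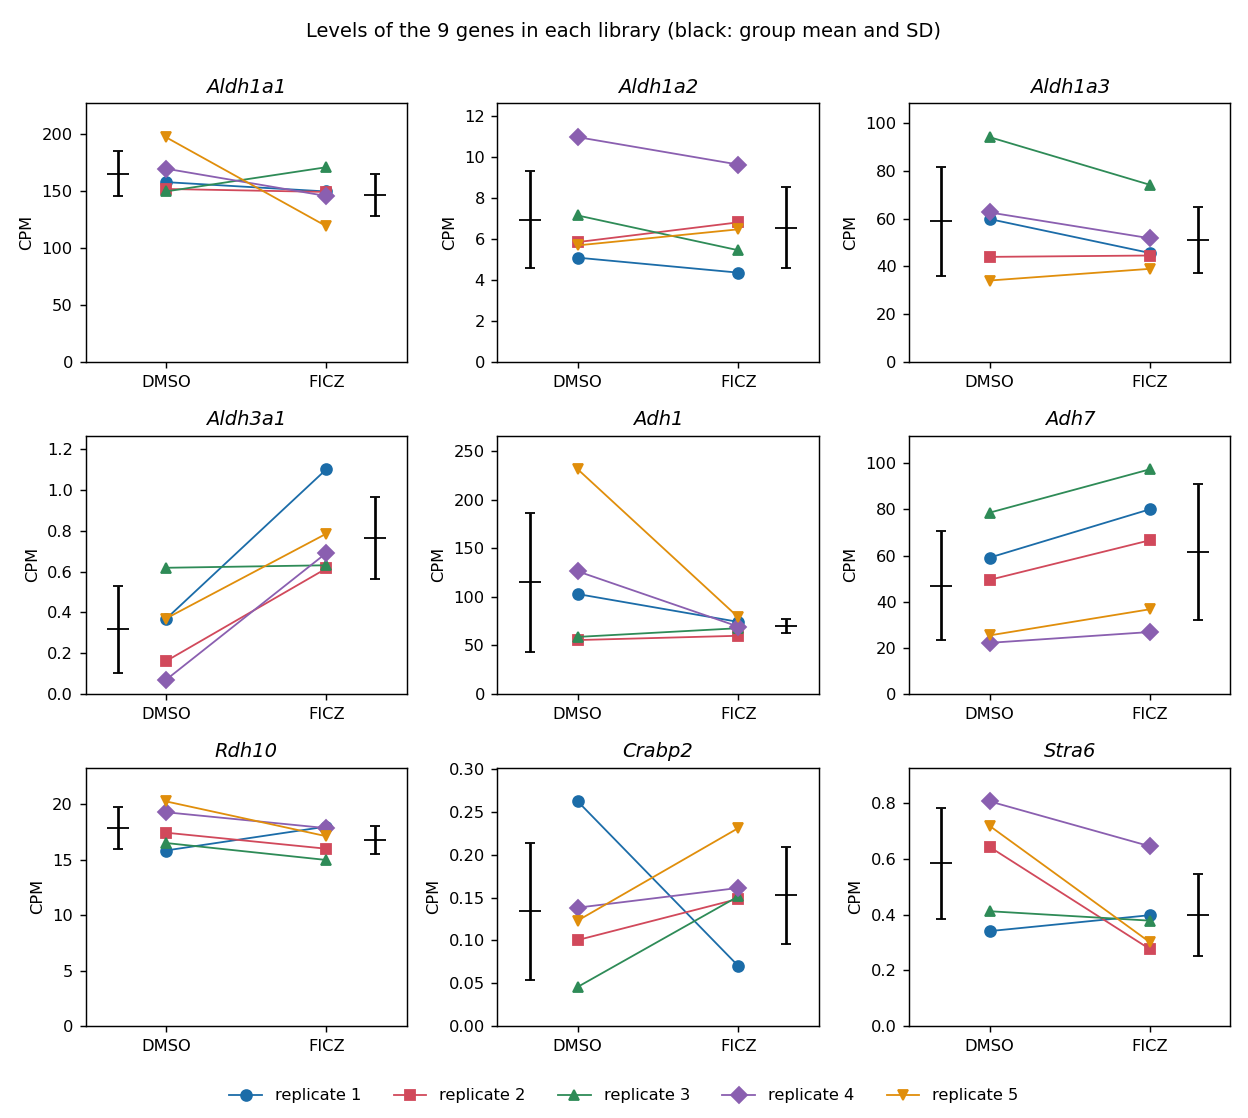
Level of each of the 9 genes in CPM (linear axis from 0) in the 10 libraries, with same-numbered DMSO and FICZ libraries joined by a line and the group mean and SD (n = 5) in black. Adh7 and Aldh3a1 were higher with FICZ in all 5 pairs, Adh7 with its replicates far apart in both groups, and Adh1 was highest in DMSO replicate 5 (231 CPM).

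Several members lie beside close relatives in the genome, and the sequences at their starts are shown because 2 results below concern such neighbours. Adh7 (chromosome 3, 138217760 to 138233382 of GRCm38, + strand) is followed by Adh1 (138260991 to 138290698, + strand) after 27608 bases, with no protein-coding gene between them. Aldh1a1 (chromosome 19, 20492715 to 20643465, + strand) and Aldh1a7 (20692953 to 20727562, - strand), a paralog that is no member of the group of 9, are 49487 bases apart and point towards each other. RefSeq gives Aldh1a1 2 starts, at 20492583 and at 20601968, the latter inside the gene as GENCODE draws it. The 80 bases before this inner start and those before the start of Aldh1a7 were 96.2% identical, against 20 of 80 bases for the outer start, position by position (RefSeq, GRCm38.p6, chr19:20601888-20601967 on the + strand and chr19:20727557-20727636 on the - strand). The inner start of Aldh1a1 and the start of Aldh1a7 read, with the bases that differ in capitals:
Aldh1a1: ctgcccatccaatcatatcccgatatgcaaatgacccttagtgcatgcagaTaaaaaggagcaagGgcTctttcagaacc
Aldh1a7: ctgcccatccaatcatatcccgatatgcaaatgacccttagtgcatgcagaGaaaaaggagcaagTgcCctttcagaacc
The transcripts are less alike. Of the 50-base words of the Aldh1a1 transcripts 3.06% also occur in those of Aldh1a7, and 7.49% the other way round, so a small share of reads could be split between them.

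Windows of 250 bases before and 50 bases after the start were searched on both strands for GCGTG, the core of the AHR response element, for TGACNNNGC, the core of the antioxidant response element, and for GTTAAT, part of the site of the hepatocyte factor HNF1. Over all 32851 windows of the RefSeq promoter table the shares with a match were 32.4%, 12.4% and 7.10%. The table has entries for Aldh1a1, Aldh1a2, Adh1, Adh7 and Stra6 and none for Aldh1a3, Aldh3a1, Rdh10 and Crabp2. Aldh1a2 was the member with matches to both response element cores, GCGTG from 128 and TGACNNNGC from 112 bases before the start, which did not overlap (chr9:71215641-71215705, + strand, matches in capitals).
Aldh1a2: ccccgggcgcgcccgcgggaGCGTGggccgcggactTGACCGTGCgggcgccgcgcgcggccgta
In Adh7 the GCGTG letters were found on the opposite strand, 12 bases past the first base of the transcript (chr3:138217775-138217799, + strand).
Adh7: acttccaagtCACGCtatttattga
GTTAAT was found 150 bases before the start of Aldh1a7 and 32 bases before that of Alb. The windows of Aldh1a1, Adh1 and Stra6 held none of the 3 motifs, which says only that these letters are not in these windows. The window of Adh1 (chr3:138277335-138277634) and the 4 of Stra6 (within chr9:58128838-58134714) lie inside the genes as GENCODE draws them.

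The comparison of FICZ with DMSO asked which of these genes changed with an AHR ligand. Of the 9 genes, 8 passed the filter on low counts and were tested together with all other genes, 14251 in all, and none passed an adjusted p of 0.05 in edgeR's quasi-likelihood test, where 0.0211% of all genes did. Aldh3a1 had an unadjusted p at or under 0.05 (1 of 8 members, against 4.82% of all genes). The median log2 fold change of the 8 was -0.13, against 0.01 over all genes tested, with 2 genes higher and 6 lower. Deviations from group means correlated positively between same-numbered libraries (0.154 to 0.317), while those of different numbers were not compared. The fit was repeated with the replicate number as blocking factor. No member passed it either (0.0561% of all genes did), and 2 of 8, Aldh3a1 and Adh7, had an unadjusted p at or under 0.05 (4.65% of all genes). DESeq2 with the same block placed 1 member, Adh7, past the threshold (adjusted p = 0.0115), and 0.14% of the genes it gave an adjusted p. DESeq2 without the block and limma-voom placed none.

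Aldh3a1 (chromosome 11, 61207537 to 61218421, + strand) had the largest fitted difference of the 8 tested. Its counts were 14, 8, 27, 3 and 18 in DMSO replicates 1 to 5 and 47, 29, 25, 30 and 34 in FICZ replicates 1 to 5. The FICZ library was above its DMSO partner in all 5 pairs in CPM, with pair 3 nearly level (log2 difference of 0.03) and pair 4 farthest apart (2.68). The 3 counts of DMSO replicate 4 in that pair are at the floor of detection. The groups just overlapped, since DMSO replicate 3 had 0.618 CPM and FICZ replicate 2 had 0.615 CPM. The mean level was 0.317 ± 0.213 CPM (SD, n = 5) in DMSO against 0.765 ± 0.200 CPM (n = 5) in FICZ. The summed counts stood in a ratio of 2.41 after scaling (95% counting interval 1.81 to 3.24). A counting interval holds the counting error of the sums only and leaves out the spread between libraries. The log2 fold change was 1.27 (standard error 0.44, edgeR adjusted p = 0.999), and 1.40 (standard error 0.42, adjusted p = 0.929) with the replicate block. Over all settings it was lowest without DMSO replicate 4 (1.015) and highest without DMSO replicate 3 (1.66). Permuting the 10 libraries exactly between groups gave a two-sided p = 0.0159 for log2 CPM, where 0.00794 is the smallest that 5 against 5 libraries allow. Among all genes tested, 4.32% were higher with FICZ in all 5 pairs, as Aldh3a1 was, and 2.81% were lower in all 5. With library size only in place of TMM the groups of Aldh3a1 did not overlap (permutation p = 0.00794, exact). With TMM no member had groups that did not overlap, a pattern shown by 0.351% of all genes with FICZ above and 0.119% with FICZ below.

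Adh7, the class IV alcohol dehydrogenase that oxidises retinol, was the other gene higher with FICZ in all 5 pairs. It had 59.1, 49.5, 78.6, 22.2 and 25.4 CPM in DMSO and 80.1, 66.7, 97.5, 26.9 and 36.8 CPM in FICZ. Replicates 3, 1 and 2 were high and replicates 4 and 5 low in both groups, so that the groups overlapped widely while the pairs did not cross. The log2 differences within pairs lay between 0.28 and 0.53 (mean 0.40, SD 0.10), a much smaller spread than the 1.82 and 1.86 log2 units between the lowest and the highest library of DMSO and FICZ. Without the block the log2 fold change was 0.39 (standard error 0.41, edgeR adjusted p = 0.999, 95% interval -0.50 to 1.28). With the block it was 0.40 (standard error 0.063, adjusted p = 0.282, interval 0.25 to 0.55), and DESeq2 with the block gave 0.39 (adjusted p = 0.0115). The exact permutation test of log2 CPM, which takes no account of the pairs, gave p = 0.429. Of the 3787 exonic bases of Adh7, 108 are overlapped by a gene on the opposite strand, as are 136 of the 2233 of Adh1. The strand setting of the counts is not given in the sources used here.

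**Figure D2:**
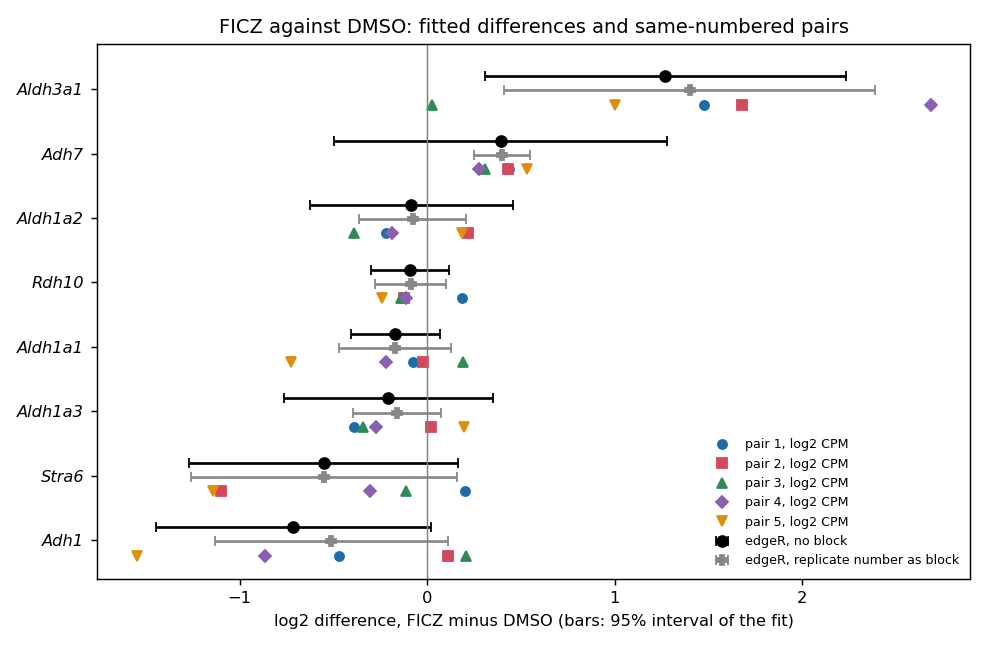
Log2 difference between FICZ and DMSO for the 8 genes tested. Black and grey points with bars give the edgeR fit and its 95% interval without a block and with the replicate number as one, and coloured points give the log2 CPM differences of the 5 same-numbered pairs. The block narrowed the interval of Adh7 from -0.50 to 1.28 down to 0.25 to 0.55 and left that of Aldh3a1 about as wide.

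The 3 enzymes that make retinoic acid from retinal did not pass the test. Aldh1a1 had 158, 152, 149, 169 and 197 CPM in DMSO and 149, 149, 171, 145 and 119 CPM in FICZ. Replicate 5 held both the highest DMSO and the lowest FICZ value, and the other 8 libraries lay between 145 and 171 CPM. The log2 fold change was -0.17 (standard error 0.11, 95% interval -0.41 to 0.07), and -0.04 when both libraries numbered 5 were left out. Aldh1a3 (chromosome 7, 66390890 to 66427517, - strand) had 59.9, 44.0, 94.2, 62.6 and 34.1 CPM in DMSO and 45.6, 44.6, 74.2, 51.8 and 39.0 CPM in FICZ. Replicate 3 was highest and replicate 5 lowest in both groups, and the log2 fold change was -0.21 (standard error 0.25). Aldh1a2 (chromosome 9, 71215789 to 71296243, + strand) had 5.09, 5.85, 7.15, 11.0 and 5.69 CPM in DMSO and 4.36, 6.81, 5.45, 9.63 and 6.47 CPM in FICZ. Here replicate 4 was highest and replicate 1 lowest in both groups, and the log2 fold change was -0.09 (standard error 0.25).

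Rdh10 (chromosome 1, 16105774 to 16133734, + strand), which oxidises retinol in the embryo and in many tissues, was the steadiest member. It had 15.8, 17.4, 16.5, 19.3 and 20.2 CPM in DMSO and 18.0, 16.0, 15.0, 17.8 and 17.1 CPM in FICZ, and the highest library of a group was 1.28 times the lowest in DMSO and 1.20 times in FICZ. Its log2 fold change was -0.09 (standard error 0.10) with a 95% interval of -0.30 to 0.12. Stra6 (chromosome 9, 58063788 to 58153996, + strand) had 13, 32, 18, 35 and 35 counts in DMSO and 17, 13, 15, 28 and 13 in FICZ. In CPM the FICZ library was lower in 4 of 5 pairs, with replicates 2 and 5 farthest apart. The log2 fold change was -0.55 (standard error 0.33, edgeR adjusted p = 0.999), with a 95% interval of -1.27 to 0.16 that includes 0. The ratio of summed counts was 0.661 (counting interval 0.498 to 0.874, without the spread between libraries). Crabp2 (chromosome 3, 87948666 to 87953376, + strand) was below the filter, with 10, 5, 2, 6 and 6 counts in DMSO and 3, 7, 6, 7 and 10 in FICZ. The ratio of its summed counts, 1.16 (counting interval 0.685 to 1.99), includes 1, so a difference was not detectable at this depth.

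Adh1, the class I alcohol dehydrogenase that is abundant in liver and adipose tissue, had the most negative fitted difference, and its level followed the liver transcripts in these libraries. It had 103, 55.6, 58.8, 126 and 231 CPM in DMSO and 74.3, 60.0, 67.8, 69.4 and 79.0 CPM in FICZ. DMSO replicates 5, 4 and 1 were high, and DMSO replicates 2 and 3 were below every FICZ library. The log2 fold change was -0.71 (standard error 0.33, edgeR adjusted p = 0.999), -0.51 with the block and -0.29 without DMSO replicate 5. With the log2 CPM of Alb, the albumin gene, as a covariate it was 0.02 (standard error 0.13).

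Alb itself had 1921, 713, 756, 1739.8 and 4782 CPM in DMSO and 1085, 923, 1017, 682 and 942 CPM in FICZ. DMSO replicates 5, 1 and 4 were thus the libraries with most Alb, the same 3 that were high in Adh1. The slope of Adh1 on log2 CPM of Alb, with treatment in the model, was 0.71 (standard error 0.07), with an edgeR adjusted p of 2.65e-05, where a slope of 1 means proportional levels. It was the only one of the 8 slopes past the threshold in this fit, and 12.9% of all genes had such a slope, which is close to 1 of 8. That share depended on single libraries, with 2.77% of all genes without DMSO replicate 5, where Adh1 still passed (slope 0.66, edgeR adjusted p = 0.0174), 6% without DMSO replicate 3, 7.52% without DMSO replicate 2 and 23.2% without DMSO replicate 1. With the replicate block 2 members passed, Adh1 with 0.61 and Aldh1a1 with 0.27 (adjusted p = 0.0147), against 14.2% of all genes. Pearson's r of Adh1 with Alb in log2 CPM was 0.96 over the 10 libraries (permutation p = 0.00037, adjusted over 14250 genes 0.0116) and Spearman's rho was 0.82 (permutation p = 0.00624, adjusted 0.147). The libraries cannot be taken as independent, because deviations of same-numbered ones correlated. Without DMSO replicates 5 and 1, the 2 libraries farthest from the median of Alb, r was 0.87, and the slope was 0.73 but no longer passed (adjusted p = 0.0588), in a fit where 1.65% of all genes did. Within pairs, the difference of Adh1 had the sign of that of Alb in 5 of 5. It did so in 4 of 5 for Aldh1a1 and in 3 of 5 for Aldh1a2 and Aldh1a3. For Aldh3a1, Adh7, Rdh10 and Stra6 it was 2 of 5. The share of all genes with the sign of Alb in all 5 pairs was not counted.

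**Figure D3:**
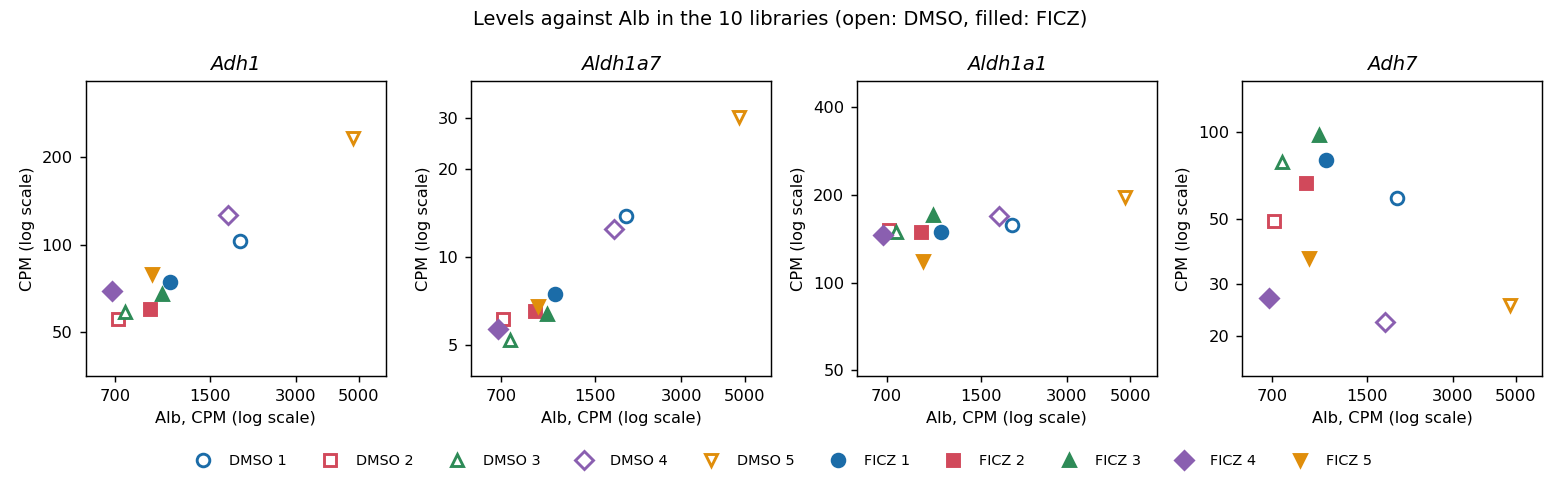
Level of Adh1, Aldh1a7, Aldh1a1 and Adh7 against that of Alb in the 10 libraries, both in CPM on log axes (each y axis spans the same number of log units). Open symbols are DMSO and filled symbols FICZ, with the shape and colour giving the replicate number. Adh1 and Aldh1a7 are higher where Alb is higher, up to DMSO replicate 5 (4782 CPM of Alb), and Adh7 sorts by replicate number. Aldh1a1 has a shallower slope on Alb (0.14, and 0.27 with the replicate block, where it passed the threshold).

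On the linear scale Adh1 gained 42.3 ± 2.87 CPM (standard error) for each 1000 CPM of Alb, and the line met 31.0 ± 5.38 CPM at no Alb. Without DMSO replicate 5 these values were 46.6 ± 8.91 and 26.5 ± 10.4 CPM. For Aldh1a7 the line met 1.16 ± 0.332 CPM at no Alb and, without DMSO replicate 5, 0.390 ± 0.553 CPM. The lowest Alb level was 682 CPM (FICZ replicate 4), so the values at no Alb are extrapolated and were not measured. Their standard errors treat the libraries as independent, and the source of the transcripts was not tested. Aldh1a7 had 13.8, 6.15, 5.20, 12.5 and 30.1 CPM in DMSO and 7.50, 6.56, 6.38, 5.69 and 6.79 CPM in FICZ, a slope on Alb of 0.87 (standard error 0.06) and r of 0.99. Its neighbour Aldh1a1 had a slope of 0.14 (standard error 0.06, adjusted p = 0.145), and r of 0.71 (permutation p = 0.0332, adjusted 0.146), which was 0.39 without the 2 farthest libraries. The difference between the neighbours' slopes was not tested. The slopes of the other 6 members tested did not pass the threshold, and their r with Alb lay between -0.41 for Adh7 and 0.52 for Rdh10. Markers of several cell types moved with Alb. The slope passed for all 19 other hepatocyte markers (median of the list 0.99), for 6 of 7 liver macrophage and sinusoid markers (median 1.00), for 7 of 9 macrophage markers (median 0.97) and for 3 of 8 hepatic stellate cell markers (median 0.38). It also passed for 2 of 7 mature adipocyte markers (median 0.38) and for 3 of 8 mesothelial markers, 2 of them with positive slopes. For ASPC markers it was 2 of 12 and for endothelial markers 1 of 6, beside 12.9% of all genes. Summed levels were 5.38 to 33.5 CPM in DMSO and 5.39 to 8.78 CPM in FICZ for liver macrophage and sinusoid markers, 24.5 to 58.8 and 24.3 to 36.9 CPM for macrophage markers, and 186 to 233 and 164 to 244 CPM for stellate cell markers, and no gene of these 3 lists stayed at 3 counts or fewer in all libraries. Their part in the level of Adh1 was not tested. In bulk samples a change in the number of cells of a type and a change in RNA per cell cannot be told apart.

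Adh7 and Aldh1a3 each had the replicates in the same order in both groups, and Aldh1a2 had the same highest and lowest replicate. The replicate number itself was therefore tested, with treatment in the model, a test added after these values were seen. Adh7 passed (F = 116 on 4 degrees of freedom, adjusted p = 0.00933 in edgeR's test), and 1.8% of all genes did. Aldh1a3 had an adjusted p of 0.0525 and Aldh1a2 of 0.0992. The result depended on which libraries were kept. Without DMSO replicate 5 the adjusted p was 0.00158 for Adh7, 0.0151 for Aldh1a3 and 0.0465 for Aldh1a2, so that 3 of 8 members passed, against 5.54% of all genes, and without FICZ replicate 5 these 3 members passed too, against 22.3% of all genes. When any 1 of the other 8 libraries was left out no gene of the table passed in edgeR's test (1712 to 2266 had an unadjusted p at or under 0.05), and the adjusted p of Adh7 reached 0.109. Whether a replicate number stands for a mouse, a culture or a day is not given in the sources used here.

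For each member with a mean of at least 1 CPM, genes among the 3 with the most similar profile over the 10 libraries were named by Pearson's r of log2 CPM among 12645 other genes. For Adh7 these were Heph (r = 0.985), Srxn1 (0.981) and Gstp2 (0.980), and for Adh1 they included Ndrg2 (0.993) and Cyp27a1 (0.990). Heph encodes a copper-dependent iron oxidase, and Srxn1 and Gstp2 encode redox and detoxifying enzymes, while Cyp27a1 encodes an enzyme of bile acid synthesis. For Aldh1a3 they included Rgs16 (0.977) and Ifitm10 (0.931), and for Aldh1a2 they were Neurl1b (0.921), Itga11 (0.918) and Tnxb (0.902). Aldh1a1 was closest to Mlx (0.970), Ppp1r3d (0.955) and Dusp14 (0.945), and Rdh10 to Cdan1 (0.972), Sertad3 (0.970) and Miip (0.957). With so many genes and 10 libraries that share depth and replicate structure, high values of r can arise for many profiles, and they are given as a description.

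The wider vitamin A pathway was read from the same fit. No gene of the lists for uptake and carriers (7 tested of 10), retinyl ester formation and hydrolysis (7 of 7), interconversion of retinol and retinal (17 of 19), retinoic acid synthesis (5 of 5), its breakdown (1 of 3), its receptors (5 of 6) and its response genes (13 of 17) passed the threshold with or without the block. Nor did any of the aldehyde dehydrogenase superfamily (19 of 21) or the alcohol dehydrogenase family (5 of 7), lists that overlap with those above. At an unadjusted p of 0.05 in edgeR's test without the block, reached by 4.82% of all genes, the uptake list had 3 genes, Ttr and Rbp4, which carry retinol in blood, with log2 fold changes of -1.15 and -1.05, and Fabp5, a carrier of fatty acids and retinoic acid, with 0.39. The ester list also had 3, the carotene-cleaving enzyme Bco1 with 1.23 (standard error 0.41), the carboxylesterase Ces1d with -1.12, and Lrat, which makes retinyl esters, with -1.23. Bco1 was scarce, at 0.273 CPM in DMSO and 0.652 CPM in FICZ. The interconversion list had Rdh16, Adh4 and Rdh7, with -1.24, -1.13 and -1.08, and the synthesis list had Aldh8a1 and Aldh1a7, with -1.25 and -1.04. The aldehyde dehydrogenase superfamily had 3, Aldh3a1 with Aldh8a1 and Aldh1a7, and the alcohol dehydrogenase family had Adh4. With the replicate block, where 4.65% of all genes reached it, the counts were 0 of 7 for uptake, 1 of 7 for esters (Bco1), 1 of 17 for interconversion (Adh7), 0 of 5 for synthesis, 1 of 13 for response genes (Tgm2, a transglutaminase, with -0.29), 2 of 19 for aldehyde dehydrogenases (Aldh3a1, and Aldh1l1 with -0.29) and 1 of 5 for alcohol dehydrogenases (Adh7). Ttr, Rbp4, Fabp5, Ces1d, Lrat, Rdh16, Adh4, Rdh7, Aldh8a1 and Aldh1a7 thus did not reach it with the block. Without the block the breakdown, receptor and response lists had none, and the nearest were Rara (-0.12), Rarg (0.10) and Rxra (-0.06) among receptors and Tgm2 (-0.29), Stra6 (-0.55) and Rarres1 (-0.56) among response genes. Cyp26b1, a retinoic acid hydroxylase, was the single breakdown gene above the filter, with 0.17, and Adhfe1 of the alcohol dehydrogenase family had -0.68.

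The median log2 fold change was -0.55 for uptake, -0.23 for esters, -0.09 for interconversion, -0.21 for synthesis, -0.05 for receptors, -0.05 for response genes, -0.15 for aldehyde dehydrogenases and -0.68 for alcohol dehydrogenases, beside 0.01 over all genes tested. Slopes on Alb were read for the same genes. Of the 57 listed genes that are no members, 14 had a log2 fold change below -0.5, and all 14 had a slope on Alb past the threshold. With the members included it was 15 of 16, with Adh1 among the 15, and Stra6 was the exception (slope 0.07, adjusted p = 0.847). Alb itself was lower with FICZ in the same libraries (mean log2 CPM difference of -0.74). A low fold change and a slope on Alb are therefore not independent here. The share of such slopes among all genes below -0.5 was not counted, so these tallies are no result about the pathway. Among the 14, the slopes were 0.97 for Ttr, 0.90 for Rbp4, 0.98 for Lrat, 0.99 for Rdh7 and 0.97 for Aldh8a1. By list, the slope passed in 3 of 7 uptake genes, 3 of 7 ester genes, 5 of 17 interconversion genes, 2 of 5 synthesis genes, 8 of 19 aldehyde dehydrogenases and 3 of 5 alcohol dehydrogenases, in none of the 5 receptors, and in 2 of 13 response genes, beside the 12.9% of all genes given above. Ttr is itself one of the 20 hepatocyte markers, and Lrat is one of the 8 stellate cell markers. How much of the difference between the groups goes with liver transcripts was not tested gene by gene in the lists.

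**Figure D4:**
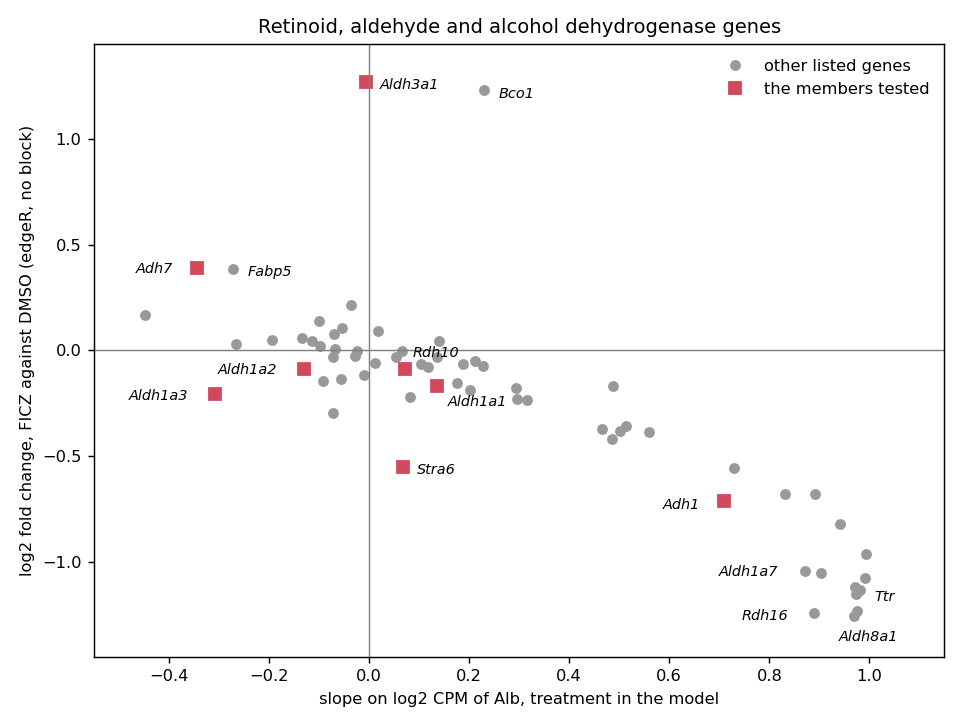
Log2 fold change of FICZ against DMSO (edgeR, no block) against the slope on log2 CPM of Alb for the 65 listed retinoid, aldehyde dehydrogenase and alcohol dehydrogenase genes that were tested, with the 8 members as red squares. The genes at the lower right, Adh1 among them, have steep slopes and negative fold changes, while Aldh3a1 and Bco1 stand at the top with slopes near 0 and 0.23.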

How the data were processed

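ASPC libraries of 5 DMSO and 5 FICZ cultures were grouped by their labels. According to the methods and the submitters' processing notes, the authors aligned reads with STAR 2.7.7 to mm10 and deposited a table of raw, not normalized counts with 1 row per symbol. The counting program, annotation and strand setting are not given in the sources used here. Annotation was GENCODE on GRCm38 (96.6% of symbols found), and promoters came from RefSeq (GRCm38.p6). No protein sequences were used here.

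Counts were scaled by TMM and tested with edgeR 4.0.16 (R 4.3.3, limma 3.58.1) by quasi-likelihood with robust dispersions and edgeR's expression filter with its minimum count of 10, and P-values were adjusted by Benjamini-Hochberg over 14251 genes with a threshold of 0.05. The prior count in log2 CPM was 2. Permutation tests were exact over 252 arrangements or, for correlations, used 100000 resamples. Of the rows, 5934 had no count. The labels do not say that replicates are separate animals, so p-values measure the spread between libraries, which may be technical. Same-numbered libraries were taken as pairs because their deviations correlated over 0.1 in all 5 pairs (0.154 to 0.317). Correlations between libraries of different numbers were not computed, so this cut alone does not show that the numbers define pairs. Alternatives included the replicate block, DESeq2 1.42.0 and leaving out each library. The treatment fits, the slope on a covariate and the test of replicate number were tried on simulated data. The simulated treatment data held no differences between replicate numbers.

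The members and gene lists were chosen with earlier results of these data known. Named genes were the members, Alb, 4 AHR targets, the 3 genes of smallest p in each pathway list and the 3 nearest in profile, of which 2 genes are not reported here. Aldh1a7 was described in detail, and Aldh1l1 named, after their values were seen.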

Additional observations from a re-analysis of the deposited data

Results flagged for a closer look

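In 20 groups of 5 libraries, the 9 members and Alb in DMSO and in FICZ, no library lay far from the others by Dixon's criterion on log2 CPM (critical value 0.71), where chance gives about 1. The 4782 CPM of Alb in DMSO replicate 5 are included in that count.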

How the results depend on the processing

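The number of genes past the threshold, 3 with edgeR, was 8 with the replicate block, 16 with DESeq2, 26 with DESeq2 and the replicate block, 0 when both libraries numbered 5 were left out (375 at an unadjusted p of 0.05), and 1 to 4 when a library was left out in turn. Members past the threshold were 0 in the other settings, each library left out in turn included, and 1, Adh7, with DESeq2 and the replicate block. The replicate block changed no other call on FICZ among the members. Members whose slope on Alb passed numbered 1 in most settings, 2 with the replicate block and 0 without the 2 libraries farthest from the median of Alb, while the number of all genes that passed moved from 238 to 3330 over these settings (1844 with all libraries). Members that differed between replicate numbers were 0 to 3 when a library was left out in turn.

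Signs turned in results that had passed no threshold. The log2 fold change of Adh1 was 0.02 with Alb as a covariate, and with a library left out in turn that of Aldh1a2 ranged from -0.266 to 0.139 (positive without DMSO replicate 4 or FICZ replicate 1) and that of Aldh1a3 from -0.381 to 0.026 (positive without DMSO replicate 3). The slope on Alb was 0.132 for Aldh1a2 without the 2 farthest libraries and 0.017 for Aldh3a1 with library size only, and with a library left out that of Aldh3a1 ranged from -0.297 to 0.492 and that of Stra6 from -0.15 to 0.154. The cause was not tested. The stricter filter removed Aldh3a1 and Stra6. Of 166 alternative values of log2 fold changes 161 kept sign and side of the threshold, as did 103 of 112 slopes and all 18 permutation tests. Depth limits Crabp2, Stra6 and Aldh3a1.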
